A study of Mus musculus with 2 samples.

Results

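The genes described here encode the machinery that carries new proteins into the endoplasmic reticulum (ER) and attaches N-glycans to them. They were taken by symbol from a fixed list of signal recognition particle, translocon, signal peptidase and oligosaccharyltransferase subunits. The rule itself used no measured values, but the list was chosen with earlier results of these data known. All 33 listed genes were found among the 17216 genes of the series. The RNA came from bone marrow cells of C57BL/6 mice sorted as long-term haematopoietic stem cells, the rare cells that sustain blood formation. One library was labelled Ccp3-/-, from animals lacking the cytosolic carboxypeptidase CCP3, an enzyme that trims glutamate from proteins, and the other came from wild type littermates. The labels give neither the number, age nor sex of the animals, nor the deleted part of the gene. With 1 library per genotype no difference has a replicate check and no test was possible, so each value sets 1 library against the other and not the genotypes.

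A nascent secretory or membrane protein is recognised by its signal sequence on the ribosome. The signal recognition particle (SRP) binds that sequence, slows translation and docks at its receptor on the ER membrane, where the ribosome is handed to the Sec61 channel. As the chain enters, signal peptidase cuts off the signal peptide and oligosaccharyltransferase (OST) transfers a preassembled glycan from a lipid carrier to asparagine residues. Cells of the granulocyte lineage depend on this route for their granule proteins, and stem cells for their surface receptors.

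Levels are the authors' FPKM values, normalised to transcript length and to depth, so they can be set side by side between genes. The knockout-labelled library listed 16318 genes and the wild type library 16532, and their low values imply about 14.2 and 15.4 M reads in all. Gene-wise reads estimated from those depths gave each ratio of FPKM values, knockout-labelled over wild type, an approximate 95% interval, which covers counting error only. Agbl3, the gene of CCP3, had 0.66 FPKM in the knockout-labelled library and 1.11 FPKM in the wild type library, from about 15 and 23 reads. The ratio was 0.595 (0.291 to 1.20), so Agbl3 gives no check of the genotype, and every direction below rests on the label. Cd48, whose protein the sort gate excluded, was listed at 114 FPKM in the knockout-labelled library and 136 FPKM in the wild type library. Slamf1, which encodes the gate's marker CD150, had 3.40 FPKM in the knockout-labelled library and 2.14 FPKM in the wild type library. Cd48 and Slamf1 are named for their place in the gate. The Cd48 level puts the cell type in the labels in doubt, while Slamf1 was listed at a low level. These are RNA values and the gate concerns protein, so the type of the sorted cells was not tested.

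Summed FPKM of the machinery was close in the 2 libraries, while its share of the library's FPKM sum was higher in the knockout-labelled library. Single subunits of the same complex went in opposite directions on the deposited FPKM scale. Every member was well expressed: the lowest value in either library was 17.6 FPKM, for the receptor subunit gene Srprb in the knockout-labelled library. The median member level was 59.3 FPKM in the knockout-labelled library and 59.1 FPKM in the wild type library, against 11.9 and 11.6 FPKM over the 11985 genes of the series with a mean of at least 1 FPKM. All 33 members passed that minimum. Summed over members, the level was 2282 FPKM in the knockout-labelled library and 2156 FPKM in the wild type library, which was 0.451% and 0.373% of each library's FPKM sum.

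A difference below is one of log2(FPKM + 1), the knockout-labelled value less the wild type value. Its median was 0.13 over the members and 0.01 over all genes, and 21 members lay above 0 and 12 below, where 50.8% of all genes lay above 0 and 49% below. By a rule of size, at least 1.5-fold on that scale, 5 members were higher in the knockout-labelled library: Stt3b, Spcs3, Tram1, Magt1 and Sec61a1. Only Dad1 was at least 1.5-fold lower. Over all genes 6.11% were past 1.5-fold higher and 6.13% past it lower, so 5 of 33 exceeded the first share and 1 of 33 did not exceed the second. The counting interval lay above a ratio of 1 for 18 members, against 31.2% of all genes, and below 1 for 9 members, against 27% of all genes. Members are abundant, with intervals reaching a median of 1.07-fold to either side, so these intervals are narrow. With both libraries scaled to an equal FPKM sum, the median of all genes moved to 0.18, the member median to 0.32 and the counts to 8 higher and 1 lower, where 12.2% of all genes were higher and 3.2% lower. With equal upper quartiles, 3 members were higher and 2 lower, where 5.23% of all genes were higher and 7.05% lower.

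**Figure D1:**
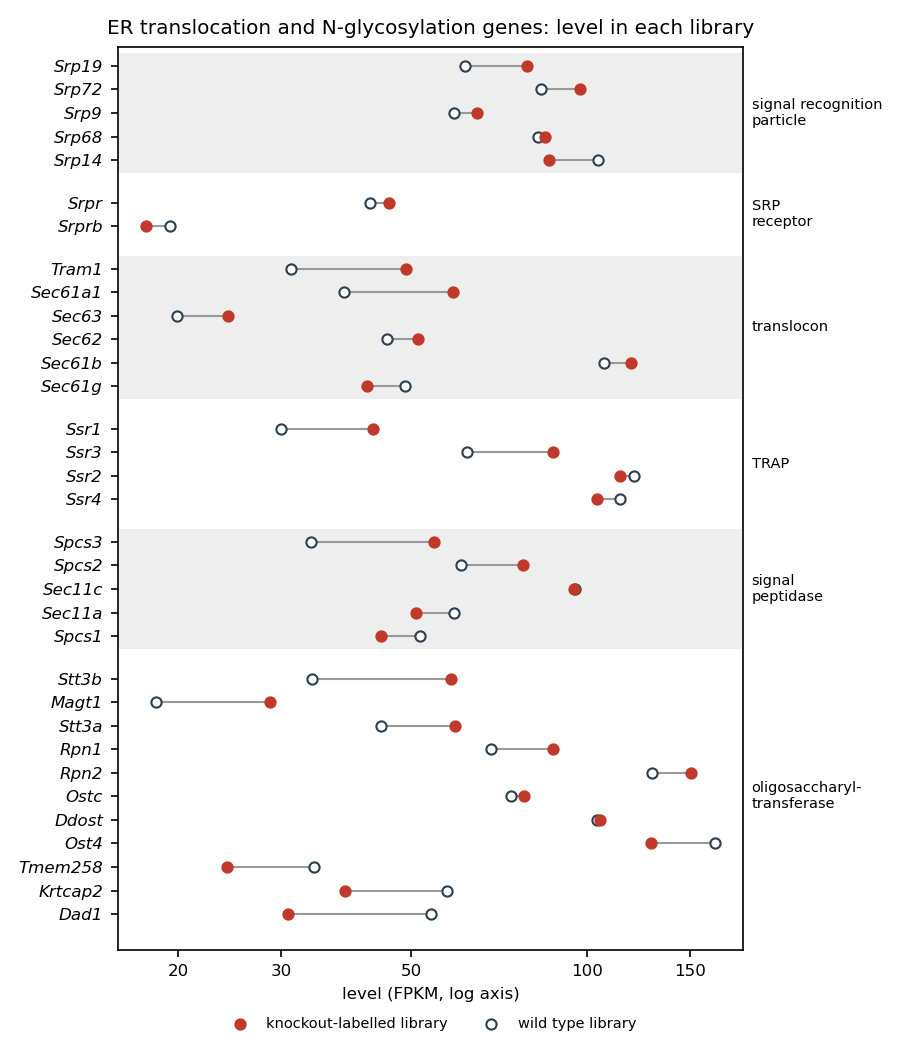
Level of each of the 33 genes in FPKM (log axis), 1 row per gene, grouped by complex and ordered within a complex by the ratio between libraries. Filled points are the knockout-labelled library and open points the wild type library, 1 library each; most pairs of points lie close together, and the widest gaps are at Stt3b, where the points are at 58.4 FPKM in the knockout-labelled and 33.8 FPKM in the wild type library, and at Dad1, where they are at 30.8 FPKM in the knockout-labelled and 54.2 FPKM in the wild type library.

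The protein subunits of SRP differed little between libraries, and none was past 1.5-fold. Srp72, which with Srp68 forms the dimer on the S domain of the particle's RNA, was listed at 97.2 FPKM in the knockout-labelled library and 83.6 FPKM in the wild type library, a ratio of 1.16 (1.12 to 1.21). Its partner Srp68 stood at 84.9 and 82.3 FPKM in the knockout-labelled and wild type libraries, a ratio of 1.03 (0.981 to 1.08) whose interval includes 1. Srp19, which helps assemble the particle on its RNA, was the most different subunit, at 79.1 FPKM in the knockout-labelled library and 61.8 FPKM in the wild type library (1.28, 1.16 to 1.41). The pair that arrests elongation divided in direction. Srp9 stood at 64.9 FPKM in the knockout-labelled and 59.3 FPKM in the wild type library (1.09, 1.01 to 1.19), and its partner Srp14 at 86.2 FPKM in the knockout-labelled and 104.6 FPKM in the wild type library (0.824, 0.756 to 0.899). Srp14 over Srp9 was thus 1.33 in the knockout-labelled library and 1.76 in the wild type library. The subunit that reads the signal sequence, SRP54, is encoded by near-identical genes, Srp54a, Srp54b and Srp54c, between which reads could be divided. Their sum was 104.3 FPKM in the knockout-labelled library and 87.1 FPKM in the wild type library, a ratio of 1.20. The RNA core of the particle, 7SL, was listed under Rn7s1 and Rn7s2, named after their values were seen. Each copy held 4.42 FPKM in the knockout-labelled library and 17.3 FPKM in the wild type library, from about 17 and 70 reads. The 2 copies had equal values in each library, so their reads could not be told apart. The ratio per copy was 0.255 (0.144 to 0.450), from few reads of a transcript of 299 bases, and its interval does not cover the sharing of reads. How well the library preparation kept this RNA was not tested, so the ratio is not set beside those of the protein subunits.

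The SRP receptor was nearly level. Srpr, the GTPase subunit that docks SRP, had 45.8 FPKM in the knockout-labelled library and 42.6 FPKM in the wild type library (1.08, 1.01 to 1.15). Srprb, its anchor in the membrane, was the least abundant member in the knockout-labelled library at 17.6 FPKM, against 19.4 FPKM in the wild type library (0.909, 0.822 to 1.002). The interval of Srprb includes 1, and its difference of −0.13 changed sign with equal FPKM sums.

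Among translocon genes the channel subunit and 1 accessory gene were past 1.5-fold, and the small subunits went either way. Sec61a1 (Entrez gene 53421), which forms the channel itself, was listed at 58.9 FPKM in the knockout-labelled library and 38.4 FPKM in the wild type library, a ratio of 1.53 (1.44 to 1.63). Tram1 (72265), a membrane protein beside the channel that aids the entry of some chains, stood at 49.1 and 31.1 FPKM in the knockout-labelled and wild type libraries (1.58, 1.47 to 1.69). The small single-span subunits of the channel did not follow Sec61a1. Sec61b had 119 FPKM in the knockout-labelled library and 107 FPKM in the wild type library (1.11, 1.01 to 1.22), and Sec61g had 42.1 FPKM in the knockout-labelled and 48.9 FPKM in the wild type library (0.861, 0.758 to 0.980). Sec61a1 was 0.496 of the level of Sec61b in the knockout-labelled library and 0.359 in the wild type library. Sec62 and Sec63, which serve chains that enter after their synthesis, with Sec63 recruiting the chaperone BiP, were both modestly higher. Sec62 had 51.5 FPKM in the knockout-labelled library against 45.4 FPKM in the wild type library (1.13, 1.08 to 1.19), and Sec63 had 24.3 FPKM in the knockout-labelled and 19.9 FPKM in the wild type library (1.22, 1.15 to 1.30). Translocon genes had a median difference of 0.23, and with equal upper quartiles Sec61a1 was under 1.5-fold while Tram1 was not. With the median of the genes nearest in length subtracted, all 6 differences lay above 0. Among them were Sec61a1 at 0.57, Sec61b at 0.50 and Sec61g at 0.07.

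The translocon-associated protein complex, TRAP, sits beside the channel and helps weakly recognised signal sequences to open it. Its 4 subunits form 1 complex, and their transcripts divided into 2 and 2 on the FPKM scale. Less the median of the genes nearest in length outside the list, all 4 differences lay above 0. They were 0.19 for Ssr1, 0.45 for Ssr3, 0.13 for Ssr2 and 0.16 for Ssr4. Ssr1, the alpha subunit, was listed at 43.1 FPKM in the knockout-labelled library and 29.95 FPKM in the wild type library (1.44, 1.38 to 1.497). Ssr3, the gamma subunit, had 87.3 FPKM in the knockout-labelled library and 62.3 FPKM in the wild type library (1.40, 1.33 to 1.47). Both came just under 1.5-fold and were past it only with equal FPKM sums. The beta and delta subunits were close to level. Ssr2 stood at 114 and 121 FPKM in the knockout-labelled and wild type libraries (0.946, 0.889 to 1.01), and Ssr4 at 104 FPKM in the knockout-labelled and 114 FPKM in the wild type library (0.912, 0.838 to 0.991), and both turned to a difference above 0 with equal FPKM sums.

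Signal peptidase also divided on the FPKM scale, with the accessory subunit genes Spcs3 and Spcs2 higher and the accessory gene Spcs1 and the catalytic gene Sec11a lower. After the median of the genes nearest in length was subtracted, 4 of its 5 genes lay above 0. Sec11a was then at 0.03 and Spcs1 at −0.0005. Spcs3 (76687), whose yeast counterpart is needed for catalysis, was listed at 54.7 FPKM in the knockout-labelled library and 33.7 FPKM in the wild type library, a ratio of 1.62 (1.53 to 1.72). Spcs2 had 77.7 FPKM in the knockout-labelled library and 60.8 FPKM in the wild type library (1.28, 1.21 to 1.35). The smallest accessory subunit gene, Spcs1, was at 44.5 and 51.9 FPKM in the knockout-labelled and wild type libraries (0.858, 0.771 to 0.954). Neither catalytic subunit was higher. Sec11a had 51.1 FPKM in the knockout-labelled library and 59.1 FPKM in the wild type library (0.864, 0.785 to 0.950). Sec11c, the alternative catalytic subunit, was at 95.2 FPKM in the knockout-labelled and 95.4 FPKM in the wild type library (0.998, 0.914 to 1.09) and changed sign with equal FPKM sums. In both libraries the catalytic transcripts were mostly Sec11c, with Sec11a at 0.536 of its level in the knockout-labelled library and 0.620 in the wild type library.

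**Figure D2:**
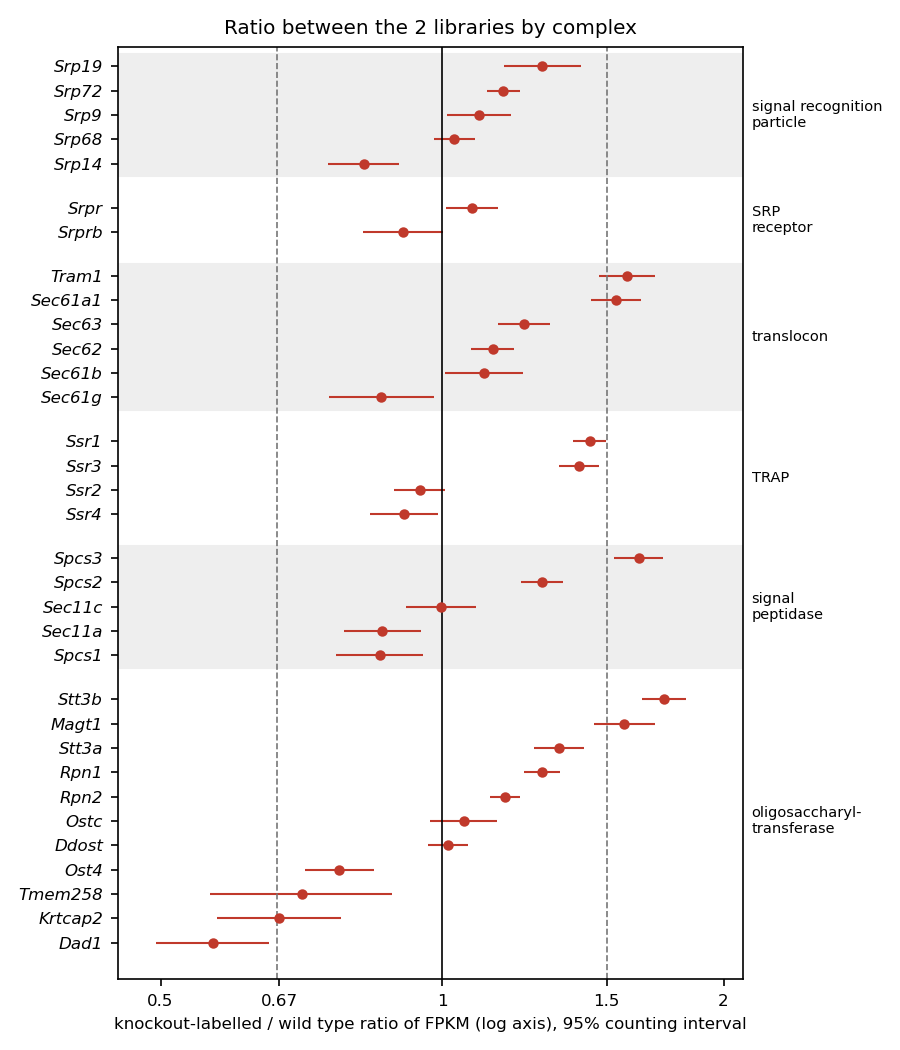
Ratio of FPKM in the knockout-labelled library over the wild type library (log axis) for each gene, grouped by complex, with its approximate 95% counting interval as a bar. The solid line marks 1 and the dashed lines 1.5-fold in either direction on the FPKM scale; points of 1 complex spread to both sides of 1, most widely in oligosaccharyltransferase, from 0.569 for Dad1 to 1.73 for Stt3b, and the log2 difference of Ddost, close to 0, turned below 0 with equal upper quartiles.

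Oligosaccharyltransferase, the complex with the most genes, showed the widest spread, with 2 of its 11 genes past 1.5-fold higher and 1 past it lower. Over all genes 6.11% were past it higher and 6.13% lower. With the median of the genes nearest in length subtracted, 1 of the 11 was past it higher and 0 lower. On that scale 4.94% of all genes were higher and 4.37% lower. The sum over the complex was 790.4 FPKM in the knockout-labelled library and 783.7 FPKM in the wild type library. Mammalian cells build this enzyme around either of the catalytic subunits STT3A and STT3B. Stt3b (68292) was listed at 58.4 FPKM in the knockout-labelled library and 33.8 FPKM in the wild type library, the highest ratio of all 33 members at 1.73 (1.64 to 1.82). Stt3a had 59.3 FPKM in the knockout-labelled library and 44.5 FPKM in the wild type library (1.33, 1.25 to 1.42). The transcripts of the catalytic pair were thus level in the knockout-labelled library, with Stt3a at 1.02 of Stt3b, and at 1.31 in the wild type library. Magt1 (67075) encodes an oxidoreductase found only in the STT3B form, which glycosylates sites that the STT3A form skips. Magt1 had 28.7 FPKM in the knockout-labelled library and 18.3 FPKM in the wild type library (1.57, 1.45 to 1.69). Its paralogue Tusc3, which takes the same place, was at 9.82 and 10.4 FPKM in the knockout-labelled and wild type libraries (0.949, 0.786 to 1.15) and changed sign with equal FPKM sums. The subunits particular to the STT3A form, which tie it to the channel, were not past 1.5-fold. Ostc had 78.0 FPKM in the knockout-labelled library and 74.0 FPKM in the wild type library (1.05, 0.971 to 1.14). Krtcap2 had 38.6 FPKM in the knockout-labelled library and 57.6 FPKM in the wild type library (0.6696, 0.574 to 0.779), next to the threshold of size and past it with equal upper quartiles. Krtcap2 over Magt1 was 1.34 in the knockout-labelled library and 3.14 in the wild type library. These transcripts differ in length, at 542 bases for Krtcap2 and 4285 bases for Magt1 in the knockout-labelled library. The genes nearest in length had a median difference of −0.35 for Krtcap2 and 0.10 for Magt1. The part of length in this ratio was not tested.

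The subunits shared by both forms ranged between clearly higher and clearly lower. The ribophorin genes were higher: Rpn1, which helps choose substrates, had 87.5 FPKM in the knockout-labelled library and 68.4 FPKM in the wild type library (1.28, 1.22 to 1.34). Rpn2, the most abundant member in the knockout-labelled library, was at 151 FPKM there and 129 FPKM in the wild type library (1.17, 1.12 to 1.21). Ddost was level at 105 and 104 FPKM in the knockout-labelled and wild type libraries (1.01, 0.965 to 1.06), and its difference changed sign with equal upper quartiles. The remaining shared subunits are very small membrane proteins, and all were lower. Dad1 (13135), named for the death of cells that lose it, had 30.8 FPKM in the knockout-labelled library and 54.2 FPKM in the wild type library, the lowest ratio of all members at 0.569 (0.495 to 0.653). Ost4 had 129 FPKM in the knockout-labelled library and 166 FPKM in the wild type library, where it was the most abundant member (0.777, 0.713 to 0.845). Tmem258 had 24.2 FPKM in the knockout-labelled library and 34.2 FPKM in the wild type library (0.709, 0.565 to 0.883), from only about 135 and 206 reads. Under every scaling tried, Dad1, Krtcap2, Tmem258 and Ost4 were below 0, and Stt3b, Spcs3, Tram1, Magt1 and Sec61a1 above it. Stt3b over Dad1 was 1.90 in the knockout-labelled library and 0.625 in the wild type library. Here too the lengths differ, at 4236 bases for Stt3b and 777 bases for Dad1 in the knockout-labelled library. The genes nearest in length had a median difference of 0.16 for Stt3b and −0.28 for Dad1. The part of length in this ratio was not tested.

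The promoters of Stt3b and Magt1, which were higher, and of Dad1 and Krtcap2, which were lower, are shown to set the opposite ends of this enzyme beside each other. Each runs 5′ to 3′ from 250 bases before to 50 bases after a start site, from RefSeq on GRCm38.p6, and capitals mark CCAAT and CCACG on either strand, the end boxes of the ER stress response element. The coordinates are chr9:115310419-115310718, minus strand for Stt3b, chrX:106011753-106012052, minus strand for Magt1, chr14:54253880-54254179, minus strand for Dad1, and chr3:89246223-89246522, plus strand for the second of the windows of Krtcap2.
Stt3b: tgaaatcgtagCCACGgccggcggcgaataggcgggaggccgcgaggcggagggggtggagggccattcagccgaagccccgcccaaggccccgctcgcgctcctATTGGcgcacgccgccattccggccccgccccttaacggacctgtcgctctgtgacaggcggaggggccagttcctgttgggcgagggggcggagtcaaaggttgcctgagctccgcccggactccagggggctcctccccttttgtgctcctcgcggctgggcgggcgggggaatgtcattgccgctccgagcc
Magt1: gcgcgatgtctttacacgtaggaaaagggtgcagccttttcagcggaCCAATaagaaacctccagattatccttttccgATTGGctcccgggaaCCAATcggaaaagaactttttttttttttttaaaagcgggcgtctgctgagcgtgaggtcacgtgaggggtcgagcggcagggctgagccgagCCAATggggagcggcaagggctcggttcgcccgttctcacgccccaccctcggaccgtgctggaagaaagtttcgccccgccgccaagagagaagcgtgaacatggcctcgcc
Dad1: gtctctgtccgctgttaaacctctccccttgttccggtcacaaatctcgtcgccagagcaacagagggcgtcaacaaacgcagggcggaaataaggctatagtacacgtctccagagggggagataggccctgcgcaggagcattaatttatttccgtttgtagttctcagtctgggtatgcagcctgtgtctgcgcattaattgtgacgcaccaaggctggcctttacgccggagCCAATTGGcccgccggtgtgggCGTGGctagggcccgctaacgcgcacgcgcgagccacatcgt
Krtcap2: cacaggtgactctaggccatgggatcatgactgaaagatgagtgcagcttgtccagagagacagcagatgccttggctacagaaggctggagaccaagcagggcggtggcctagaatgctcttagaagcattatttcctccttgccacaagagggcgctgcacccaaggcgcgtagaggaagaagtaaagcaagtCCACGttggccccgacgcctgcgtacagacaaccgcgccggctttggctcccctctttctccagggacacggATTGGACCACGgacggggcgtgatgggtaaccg

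The full ER stress response element (ERSE), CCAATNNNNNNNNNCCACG on either strand, is where ATF6 with NF-Y drives chaperone genes. It was in 0 of 28 windows of the 25 members matched in the RefSeq table, and in 0.119% of all 32851 windows of that length. Members without a window were Srp19, Srp68, Sec61a1, Tram1, Ssr2, Spcs3, Sec11c and Ostc. Of 12 matched ER chaperone genes, 5 held the element, namely Creld2, Dnajc3, Hsp90b1, Hspa5 and Pdia6, as did Calr and Canx of the lectin cycle. For comparison with the promoters above, the element of Hspa5, the gene of BiP, lies at chr2:34772015-34772053, plus strand, and that of Canx at chr11:50325790-50325828, minus strand, with its ends in capitals.
Hspa5: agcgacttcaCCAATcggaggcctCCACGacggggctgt
Canx: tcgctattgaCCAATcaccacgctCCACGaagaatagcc
The short form ERSE-II, ATTGG and CCACG with any 1 base between them, was in 1 member window, that of Krtcap2, whose transcript was lower, and in 0.0365% of all windows. These end boxes alone, which the full elements contain, were common: CCAAT was in 14 of 28 member windows and 37.4% of all windows, and CCACG in 18 of 28 and 32.8%. The XBP1 site TGACGTGG was in 0 member windows and 0.676% of all windows. These are matches of letters in short windows, on which no inference about the factors is placed.

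Which subunits were higher followed transcript length. Member transcripts fell into a short group of 15, up to 1388 bases, and a long group of 18, from 2134 bases. In the long group the knockout-labelled value was higher for 17 of 18, at a median difference of 0.35, and Srprb was the exception; with equal upper quartiles 16 of 18 were higher and with equal FPKM sums 18 of 18. In the short group 4 of 15 were higher, namely Srp9, Srp19, Sec61b and Ostc, with a median of −0.21; with equal FPKM sums 7 of 15 were higher and the median was −0.02. Other genes of the series showed the same order, in smaller measure among long genes and in similar measure among short ones. Of 7935 other genes of at least 2000 bases, 61.9% were higher and the median difference was 0.09, and of 4017 under 2000 bases 28.7% were higher and the median was −0.18. Across the 33 members the Spearman correlation of difference with length was 0.78, and across the 11952 other genes it was 0.43; all points share the same 2 libraries, and genes are not replicates.

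Set against the 200 genes nearest in length outside the list, most members lay above 0. The difference of a member minus the median of those neighbours had a median of 0.16 and was above 0 for 26 of 33 members, where 50.1% of all genes were above 0. Past 1.5-fold on this centred scale were Tram1 at 0.64, Srp19 at 0.62, Stt3b at 0.61 and Spcs3 at 0.60, where 4.94% of all genes were past it higher. No member was past it lower, where 4.37% of all genes were. Dad1 lay farthest below its neighbours at −0.51, followed by Krtcap2 at −0.21, while Ost4 at −0.01 was level with its own. Sec61b, by contrast, was only slightly higher in itself but lay 0.50 above genes of its length. The part of length in the differences was not tested.

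**Figure D3:**
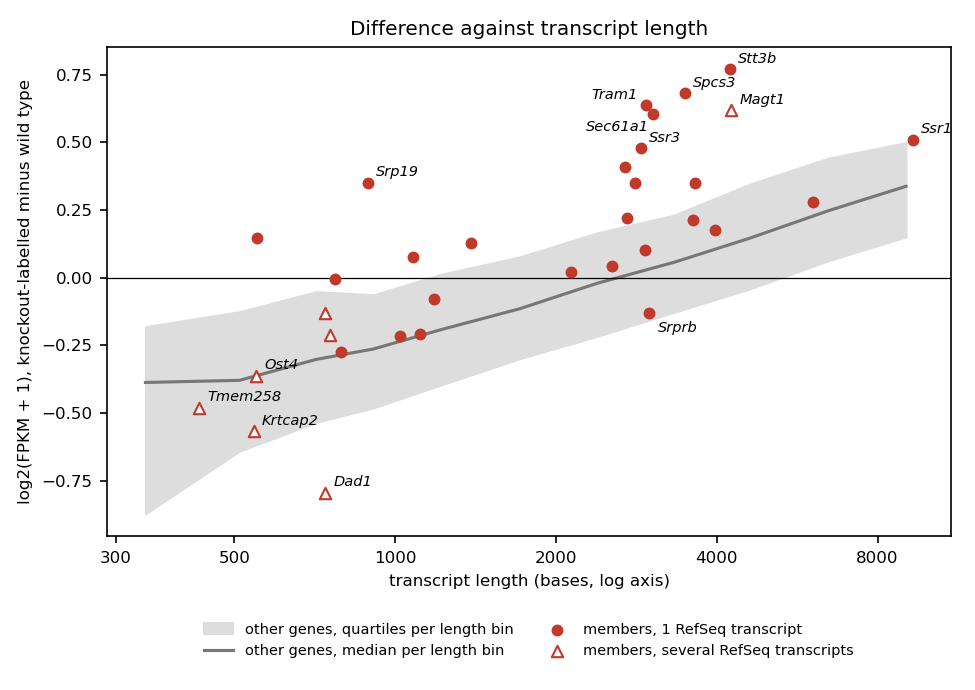
Difference in log2(FPKM + 1), knockout-labelled minus wild type, against transcript length in bases (log axis). Points and triangles are the 33 members with 1 or several RefSeq transcripts; the grey line and band are the median and quartiles of the other genes per length bin, and long members such as Stt3b (0.77) lie high, short ones such as Dad1 (−0.80) low.

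Short members with several RefSeq transcripts were all lower. These were Sec61g, Ssr4, Dad1, Ost4, Krtcap2 and Tmem258, with a median difference of −0.42, or a median of −0.003 over the 9 short members with 1 transcript. Ssr4 is the exception under scaling, above 0 with equal FPKM sums. Among other genes under 2000 bases the medians were −0.22 with several transcripts and −0.16 with 1 transcript. For such genes the deposited length is a mean over transcripts and can differ between libraries. For Dad1 it was 777 bases in the knockout-labelled library and 739 bases in the wild type library, from about 324 and 585 estimated reads in that order. How reads were shared between transcripts was not tested.

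Other genes of the secretory route differed by step. Beside the counts below, 6.11% of all genes were past 1.5-fold higher and 6.13% past it lower. The genes that build the lipid-linked glycan used by OST had a median difference of −0.01, turning to 0.15 with equal FPKM sums. Of 22 measured at a mean of 1 FPKM or more, of 23 listed, only Nus1 was past 1.5-fold higher and only Dpm2 past it lower. Nus1, a subunit of the enzyme that makes the dolichol carrier, had 13.6 FPKM in the knockout-labelled library and 8.66 FPKM in the wild type library. Dpm2, a small subunit of dolichol-phosphate mannose synthase, stood at 17.1 FPKM in the knockout-labelled and 28.0 FPKM in the wild type library, and Alg14, which acts in the second sugar step, at 8.86 FPKM in the knockout-labelled and 12.2 FPKM in the wild type library. Insertion of tail-anchored and multispanning proteins by the GET pathway and the ER membrane complex is a separate route. Its 17 genes had a median of −0.11, turning to 0.08 with equal FPKM sums, and 0 were past 1.5-fold in either direction. Ubl4a, of the GET pathway, stood at 12.6 and 17.0 FPKM in the knockout-labelled and wild type libraries, Mmgt1, of the ER membrane complex, at 12.0 FPKM in the knockout-labelled and 9.19 FPKM in the wild type library, and Emc1, of the same complex, at 6.20 FPKM in the knockout-labelled and 4.76 FPKM in the wild type library.

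Most genes that act after glycan transfer were higher in the knockout-labelled library. For comparison, 50.8% of all genes were above 0 and 6.11% past 1.5-fold higher. Of 10 genes that trim the new glycan or bind it as lectins, 7 were above 0 with a median of 0.36, and only Canx was past 1.5-fold. The lectin chaperone gene Canx was listed at 199 FPKM in the knockout-labelled library and 112 FPKM in the wild type library (1.78, 1.73 to 1.83). The cargo receptor gene Lman1 stood at 67.2 FPKM in the knockout-labelled and 44.7 FPKM in the wild type library, and Mogs, the first trimming glucosidase, at 47.7 FPKM in the knockout-labelled and 32.0 FPKM in the wild type library. All 14 ER chaperone and oxidoreductase genes were above 0, 8 of them past 1.5-fold higher, with a median of 0.59. Sdf2l1, a cofactor of BiP, had 85.5 FPKM in the knockout-labelled library and 39.1 FPKM in the wild type library, the chaperone gene Hyou1 had 91.9 FPKM in the knockout-labelled and 45.3 FPKM in the wild type library, and the oxidase gene Ero1l had 21.7 FPKM in the knockout-labelled and 10.3 FPKM in the wild type library. Among 12 genes of the COPII coat, which buds vesicles from the ER, 2 were past 1.5-fold higher and the median was 0.17. They were the cargo adaptor genes Sec24d, at 10.9 FPKM in the knockout-labelled and 5.58 FPKM in the wild type library, and Sec24a, at 3.71 FPKM in the knockout-labelled and 1.89 FPKM in the wild type library, the second named after its value was seen. Sec16a stood at 14.7 FPKM in the knockout-labelled and 11.6 FPKM in the wild type library, and Sec23a at 6.78 FPKM in the knockout-labelled and 5.31 FPKM in the wild type library. Genes of signal peptide peptidases and of quality control at stalled ribosomes had a median of 0.34 over 7, with 0 past 1.5-fold, and Ltn1, a ubiquitin ligase for stalled chains, stood at 10.5 FPKM in the knockout-labelled and 7.31 FPKM in the wild type library, the protease gene Zmpste24 at 20.5 FPKM in the knockout-labelled and 14.6 FPKM in the wild type library, and Nemf, the partner of Ltn1, at 34.7 FPKM in the knockout-labelled and 25.3 FPKM in the wild type library. The 6 paralogues and remaining subunits had a median of 0.14 with 0 past 1.5-fold. Set against the genes nearest in length, as for the members, the median was 0.25 for the trimming and lectin genes and 0.63 for the chaperone genes. On that centred scale it was 0.14 for the COPII genes, with 8 of 12 above 0, and 0.19 for the peptidase and quality control genes. No test of a difference between these lists and the members was made.

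**Figure D4:**
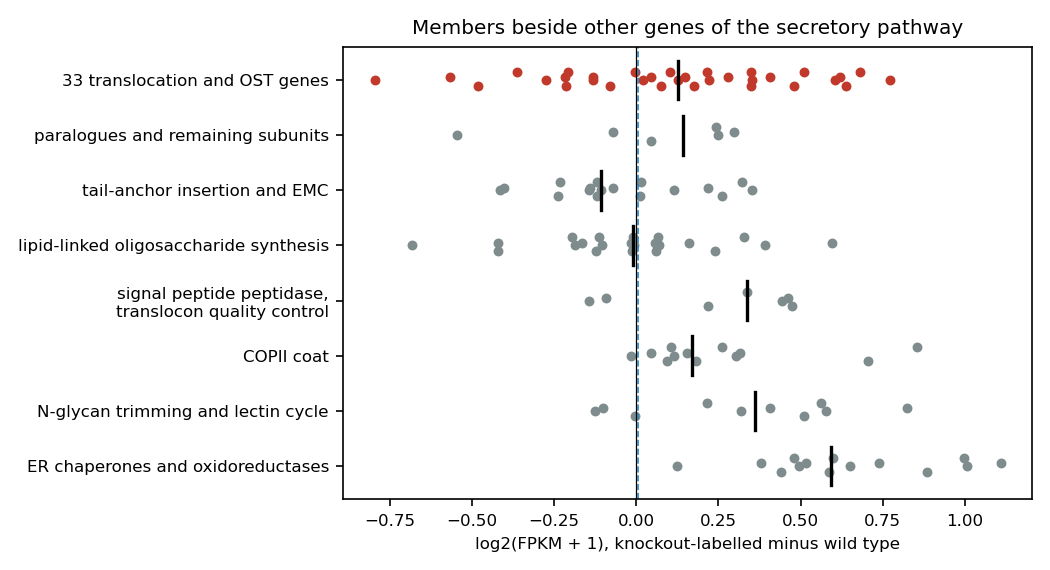
Difference in log2(FPKM + 1), knockout-labelled minus wild type, for each gene (points) of the 33 members in the top row and of 7 other lists of the secretory route, with list medians as black bars. The dashed line is the median of all genes at 0.01; member points run from −0.80 to 0.77, while all 14 chaperone genes lie above 0, and the medians of the lipid-linked glycan and tail-anchor lists, below 0 here, turn above 0 with equal FPKM sums.

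Markers of other cells moved between the same libraries. Their counts stand beside 6.11% of all genes past 1.5-fold higher and 6.13% past it lower. In bulk RNA fewer cells of a type and less RNA per cell cannot be told apart. Neutrophil precursor genes summed to 12197 FPKM in the knockout-labelled library and 8738 FPKM in the wild type library. Of 14 such genes, 9 were past 1.5-fold higher and 0 lower, among them Mmp8 at 21.7 FPKM in the knockout-labelled and 7.84 FPKM in the wild type library and Chil3 at 157 FPKM in the knockout-labelled and 66.97 FPKM in the wild type library. Camp and Ngp, also granule protein genes and named after their values were seen, lay below 0. Camp had 152 FPKM in the knockout-labelled library and 207 FPKM in the wild type library (0.731, 0.679 to 0.787), and Ngp had 565 FPKM in the knockout-labelled library and 581 FPKM in the wild type library (0.973, 0.945 to 1.001), a difference that turned above 0 with equal FPKM sums. Plasma cell genes, the markers of the most secretory blood cell, summed to 261 FPKM in the knockout-labelled and 146 FPKM in the wild type library, with 3 of 6 measured past 1.5-fold higher. Jchain had 172 FPKM in the knockout-labelled library and 84.6 FPKM in the wild type library, and Mzb1 had 17.8 FPKM in the knockout-labelled and 9.97 FPKM in the wild type library. The plasma cell surface marker gene Sdc1, named after its value was seen, was lower at 4.73 FPKM in the knockout-labelled and 5.82 FPKM in the wild type library (0.813, 0.673 to 0.978). The defining genes Prdm1 and Tnfrsf17 were under 1 FPKM in both libraries, and no plasma cell marker was at 0.

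B cell and dendritic cell markers and most erythroid markers were lower in the knockout-labelled library, where 6.13% of all genes were past 1.5-fold lower. B cell genes summed to 67.3 FPKM in the knockout-labelled library and 154 FPKM in the wild type library, with 10 of 11 past 1.5-fold lower, among them Igll1 at 3.46 FPKM in the knockout-labelled and 11.7 FPKM in the wild type library and Vpreb1 at 2.45 FPKM in the knockout-labelled and 7.79 FPKM in the wild type library. Dendritic cell genes summed to 278 FPKM in the knockout-labelled and 503 FPKM in the wild type library, with 8 of 8 measured past it lower, among them H2-Aa at 18.5 FPKM in the knockout-labelled and 44.8 FPKM in the wild type library. Erythroid genes summed to 435 FPKM in the knockout-labelled and 1544 FPKM in the wild type library, with 6 of 9 past it lower, among them Hba-a1 at 155 FPKM in the knockout-labelled and 764 FPKM in the wild type library and Hbb-bs at 107 FPKM in the knockout-labelled and 457 FPKM in the wild type library. The erythroid regulator genes Klf1 and Epor, named after their values were seen, were above 0. Klf1 had 6.77 FPKM in the knockout-labelled library and 5.76 FPKM in the wild type library (1.18, 0.921 to 1.498), and Epor had 2.12 FPKM in the knockout-labelled library and 1.6 FPKM in the wild type library (1.325, 0.878 to 2.03). The 4 multipotent progenitor genes summed to 522 FPKM in the knockout-labelled and 880 FPKM in the wild type library, with Dntt at 149 FPKM in the knockout-labelled and 341 FPKM in the wild type library and Flt3, which is also on the dendritic list, at 82.5 FPKM in the knockout-labelled and 155 FPKM in the wild type library. Long-term stem cell genes summed to 95.2 FPKM in the knockout-labelled and 150 FPKM in the wild type library, with 3 of 10 past 1.5-fold lower and 1 higher. Procr was among the lower, at 14.5 FPKM in the knockout-labelled and 29.0 FPKM in the wild type library. The higher was Vwf, named after its value was seen, at 4.53 FPKM in the knockout-labelled and 2.47 FPKM in the wild type library. The median difference of this list was −0.12 with 2 of 10 above 0, Vwf and Slamf1. With equal FPKM sums the median turned to 0.03 with 6 of 10 above 0. No gene of these marker lists was at 0 in either library. The part of these cell types in the levels of the translocation and OST genes was not tested.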

How the data were processed

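RNA of the sorted cells was sequenced on a BGISEQ-500 instrument, per the labels, with 1 library per genotype. The authors deposited 1 table per library with an FPKM value and a transcript length per Entrez gene, per the file headers. The submitters' processing notes list RSEM, HISAT and HISAT2 and build mm9; versions, settings and use of strand: not given in the sources used here. Symbols came from RefSeq on GRCm38.p6, which matched 17169 of 17216 gene identifiers, and no gene coordinates were taken across builds.

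A gene absent from a table was taken as 0. Depth was estimated by bringing FPKM times length, less an offset of 35 bases in the knockout-labelled and 37 bases in the wild type library, closest to whole multiples of a step. The steps were 70.6 and 65, and 86.0% of 207 and 85.1% of 221 values of short genes with 1 transcript lay within 0.15 of a whole read; step and offset were chosen on these values. Intervals are exact conditional binomial (Clopper-Pearson) intervals at 95% on the rounded reads. A gene counted as higher or lower at 1.5-fold on the log2(FPKM + 1) scale, which understates low genes, given a mean of 1 FPKM or more. Named genes were all members, up to 3 per pathway list and 2 per marker list by size of difference (mean 5 FPKM or more), and those said to be named otherwise; a marker gene that the rule named is not reported here. Members and lists were chosen with earlier results of these data known. Alternatives covered the pseudocount, the filter, the scaling (equal sums, equal upper quartiles, TMM) and length centring. The depth step and offset, the counting intervals, the 1.5-fold rule, length centring and the TMM factor were first tested on simulated data. The other steps were not. Software was matplotlib 3.10.9, scipy 1.17.1, numpy 2.4.6 and pandas 2.3.3 under Python 3.11.15.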

Additional observations from a re-analysis of the deposited data

How the results depend on the processing

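The member median difference of 0.13, the counts of 5 members past 1.5-fold higher and 1 lower, and the count of 21 members above 0 were recomputed under 8 alternatives. With a pseudocount of 5, 2 members were higher (Spcs3 and Stt3b) and 1 lower, where 2.35% of all genes were higher and 2.69% lower. With equal FPKM sums the median was 0.32 and 8 members were higher (Ssr1, Ssr3 and Stt3a in addition). With equal upper quartiles 3 were higher (Tram1, Spcs3 and Stt3b) and 2 lower (Dad1 and Krtcap2). After length centring 0 were lower, and 4 were higher (Srp19, Tram1, Spcs3 and Stt3b). Each of these changes follows from the construction of its setting. A larger pseudocount shrinks differences, and equal upper quartiles scale the knockout-labelled library lower. Equal FPKM sums scale it higher, since its sum was 506124 FPKM against 577420 FPKM in the wild type library. Length centring subtracts the median of genes near in length. What lies behind the unlike sums and the trend with length was not tested. With a pseudocount of 0.1, no filter, a filter at 5 FPKM or TMM factors, the median was 0.12 or 0.13 and the counts were equal, and all 33 members passed every filter. The sign changed for 4 members with equal sums (Srprb, Ssr2, Ssr4 and Sec11c), for 1 with equal upper quartiles (Ddost) and for 5 after centring (Sec61g, Ssr2, Ssr4, Sec11a and Sec11c). No paired analysis was possible because each genotype has 1 library, and no replicate could be left out. Depth limits Tmem258, Krtcap2 and Dad1 most among the members, and counting intervals say nothing about variation between animals.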
